A study of Mus musculus with 2 samples.

Results

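The proneural basic helix-loop-helix (bHLH) factors are transcription factors that commit neural progenitors to make neurons. The 9 genes described here are the neurogenins Neurog1, Neurog2 and Neurog3, the factors Atoh1 and Ptf1a, and the NeuroD factors Neurod1, Neurod2, Neurod4 and Neurod6. They were chosen by symbol, with earlier results of these data known, from 43346 Ensembl genes in the deposited mouse gene tables, and all 9 matched 1 row each. The RNA came from central nervous system tissue of mouse embryos of both sexes (strain C57BL/6J, littermates at embryonic day 11.5) and was polyadenylated, depleted of ribosomal and short RNA and sequenced as strand-specific paired-end libraries. There were 2 libraries, biological replicates 1 and 2 of a single group, and the labels name no transgene, treatment or other condition. The labels do not say how the tissue was bounded at dissection, nor how many embryos or litters went into a library. No contrast exists, so no test and no p-value is given. Every SD has n = 2 and measures only the spread between these libraries, which may be technical, biological or both.

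A proneural factor binds DNA as a dimer with an E protein, at short sites of the form CANNTG called E-boxes. Id proteins take the E protein away, and Hes and Hey repressors, which respond to Notch, keep proneural genes low in progenitors. A progenitor in which a proneural factor gains the upper hand makes the Notch ligand Delta, leaves the cell cycle and turns on NeuroD genes, which drive the later steps of neuronal differentiation. The neurogenins act in sensory ganglia, ventral spinal cord and dorsal telencephalon, Atoh1 in the rhombic lip and the most dorsal spinal interneurons, and Ptf1a in dorsal inhibitory interneurons and cerebellar progenitors.

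The libraries held 126358805 and 111687579 expected counts (estimated reads per gene), of which 95.3% and 96.7% fell on Ensembl genes. The libraries stood apart in trunk and liver genes. All 10 genes of a trunk and caudal axis list were at least 2-fold higher in replicate 2. The list holds Hox genes and genes of muscle and somites. Their summed TPM (the share of a library's transcripts, corrected for gene length) was 5.47 in replicate 1 and 224 in replicate 2. The Hox gene Hoxb9 was at 0.17 and 28.3 TPM, and the muscle gene Myog at 0.4 and 34.22 TPM. Whether the Hox RNA came from caudal nervous tissue or from other trunk tissue was not tested. Of 6 liver genes, 5 were at least 2-fold lower in replicate 2, with summed TPM of 913 and 360.1. Among 16511 genes with at least 100 counts over both libraries, 6.53% were at least 2-fold higher and 4.92% at least 2-fold lower. Both lists were chosen with earlier results of these data known. In whole tissue, fewer cells of a type and less RNA per cell cannot be told apart. The part of these differences in the values of the proneural genes was not tested.

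The member genes share the domain that names the family. The 150-base coding window with most bases in common, found by sliding the coding sequence of Neurod1 over the others in steps of a codon, lies in the bHLH domain of each gene and on 1 exon. It is shown because reads from near-identical stretches are the ones that could be assigned to the wrong relative. Sequences are from the GENCODE M21 transcripts on mm10, 5′ to 3′, and capitals mark the 49 of 150 bases that are identical in all 9 genes.
Neurog1: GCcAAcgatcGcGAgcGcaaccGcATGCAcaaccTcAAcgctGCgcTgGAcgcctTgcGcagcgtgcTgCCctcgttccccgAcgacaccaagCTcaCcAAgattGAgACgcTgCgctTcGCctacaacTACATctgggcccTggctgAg
Neurog2: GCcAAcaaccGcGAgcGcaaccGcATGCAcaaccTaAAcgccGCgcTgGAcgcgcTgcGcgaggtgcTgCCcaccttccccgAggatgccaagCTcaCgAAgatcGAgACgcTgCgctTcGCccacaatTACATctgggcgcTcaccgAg
Neurog3: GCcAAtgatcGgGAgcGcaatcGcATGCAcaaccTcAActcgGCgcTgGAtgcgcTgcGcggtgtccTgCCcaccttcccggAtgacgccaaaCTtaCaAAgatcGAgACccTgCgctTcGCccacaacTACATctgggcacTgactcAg
Atoh1: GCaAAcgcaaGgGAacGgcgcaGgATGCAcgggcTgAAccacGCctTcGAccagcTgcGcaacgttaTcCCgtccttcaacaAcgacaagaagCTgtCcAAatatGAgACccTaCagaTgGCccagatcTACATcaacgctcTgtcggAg
Ptf1a: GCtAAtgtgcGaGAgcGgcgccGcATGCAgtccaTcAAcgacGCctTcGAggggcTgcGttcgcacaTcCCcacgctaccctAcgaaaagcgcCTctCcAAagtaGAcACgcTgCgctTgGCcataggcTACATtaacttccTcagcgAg
Neurod1: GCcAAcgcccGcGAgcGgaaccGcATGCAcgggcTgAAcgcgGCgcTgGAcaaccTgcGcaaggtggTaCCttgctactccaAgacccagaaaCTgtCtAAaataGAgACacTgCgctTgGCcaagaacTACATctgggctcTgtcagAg
Neurod2: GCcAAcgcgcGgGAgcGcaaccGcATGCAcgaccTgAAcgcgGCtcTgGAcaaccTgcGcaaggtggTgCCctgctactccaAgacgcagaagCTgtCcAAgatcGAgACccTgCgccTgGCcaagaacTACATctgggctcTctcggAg
Neurod4: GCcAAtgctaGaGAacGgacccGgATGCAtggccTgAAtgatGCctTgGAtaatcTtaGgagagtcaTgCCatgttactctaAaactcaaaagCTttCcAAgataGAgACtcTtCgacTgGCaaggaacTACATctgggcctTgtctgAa
Neurod6: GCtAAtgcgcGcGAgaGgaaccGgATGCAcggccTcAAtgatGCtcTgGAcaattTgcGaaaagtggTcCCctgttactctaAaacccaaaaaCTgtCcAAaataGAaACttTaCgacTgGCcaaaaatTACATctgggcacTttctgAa
The neurogenins matched each other at 125 to 128 of the 150 bases, and the NeuroD factors at 106 to 133, with Neurod1 and Neurod2 closest at 133. Between a neurogenin and a NeuroD factor the number was 85 to 114. Ptf1a stood furthest away, with 77 to 84 bases shared with the NeuroD factors, while Atoh1 shared 92 to 104 with them. The deposited SD of read assignment was 0 reads for 8 of the 9 genes in both libraries. For Neurod1 it was 0.22 and 0.10 reads.

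Neurog2, a neurogenin of ventral spinal cord, sensory ganglia and cortex, had the highest level of the 9. Its gene (ENSMUSG00000027967.7, mm10 chr3:127633135-127635631, plus strand) was at 63.81 TPM in replicate 1 and 38.02 TPM in replicate 2, a mean of 50.9 ± 18.2 (SD, n = 2), from 11175 and 5677 expected counts. Neurog1, which acts beside it and is needed for cranial sensory ganglia (ENSMUSG00000048904.4, chr13:56250478-56252163, minus strand), was at 44.68 and 33.37 TPM, a mean of 39.0 ± 8.00. Replicate 1 was the higher library for both. The ranges of both genes overlapped, since Neurog1 in replicate 1 was above Neurog2 in replicate 2, although Neurog2 exceeded Neurog1 within each library, 1.43-fold in replicate 1 and 1.14-fold in replicate 2.

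Neurog3 differed from both relatives. This neurogenin is best known for making the endocrine cells of the pancreas and gut, and it is also found in the ventral spinal cord and hypothalamus (ENSMUSG00000044312.3, chr10:62133090-62134763, plus strand). It was at 0.27 TPM in replicate 1 and 1.76 TPM in replicate 2, from 31 and 174 counts, a mean of 1.01 ± 1.05. The exact 95% Poisson intervals, 0.184 to 0.383 TPM and 1.51 to 2.04 TPM, did not overlap. Such intervals cover counting error only, here and below. Within a library, Neurog2 exceeded Neurog3 236-fold in replicate 1 and 21.6-fold in replicate 2.

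Atoh1, the factor of the rhombic lip, granule cell precursors and hair cells (ENSMUSG00000073043.4, chr6:64729125-64731245, plus strand), was at 3.04 and 1.76 TPM, a mean of 2.40 ± 0.905, from 497 and 245 counts. Ptf1a, which steers dorsal progenitors to an inhibitory fate and binds DNA together with an E protein and Rbpj (ENSMUSG00000026735.2, chr2:19445663-19447501, plus strand), was at 1.40 and 1.26 TPM, a mean of 1.33 ± 0.099, from 159 and 122 counts. The Poisson intervals of Atoh1, 2.78 to 3.32 TPM in replicate 1 and 1.55 to 1.99 TPM in replicate 2, did not overlap, whereas the intervals of Ptf1a, 1.19 to 1.63 TPM and 1.05 to 1.504 TPM, did. Atoh1 exceeded Ptf1a 2.17-fold and 1.40-fold within the libraries.

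Among the NeuroD factors, Neurod1 led. Neurod1, which follows the neurogenins in newborn neurons and also acts in endocrine cells (ENSMUSG00000034701.9, chr2:79452521-79456751, minus strand), was at 21.73 and 16.82 TPM, a mean of 19.3 ± 3.47, from 4739.95 and 3131.99 expected counts. Its ratio to Neurog1 was the steadiest of those examined: Neurog1 exceeded it 2.06-fold in replicate 1 and 1.98-fold in replicate 2. Neurod4 (also called Math3, ENSMUSG00000048015.3, chr10:130268152-130280240, minus strand), a factor of early neurons and retina, was at 3.51 and 5.80 TPM, a mean of 4.66 ± 1.62, from 949 and 1341 counts. It ran against Neurod1, which was higher in replicate 1: the ratio of Neurod1 to Neurod4 was 6.19 in replicate 1 and 2.90 in replicate 2.

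Neurod2 and Neurod6 mark later neurons, above all the excitatory neurons of the cortex. Neurod2 (ENSMUSG00000038255.6, chr11:98325415-98329648, minus strand) was at 3.03 and 1.75 TPM, a mean of 2.39 ± 0.905, from 768 and 379 counts. Neurod6 (ENSMUSG00000037984.8, chr6:55677822-55681263, minus strand) was at 2.25 and 2.44 TPM, a mean of 2.35 ± 0.134, from 380 and 351 counts. Neurod2 was higher in replicate 1, and the Poisson intervals of Neurod6, 2.03 to 2.49 TPM and 2.19 to 2.71 TPM, overlapped.

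**Figure D1:**
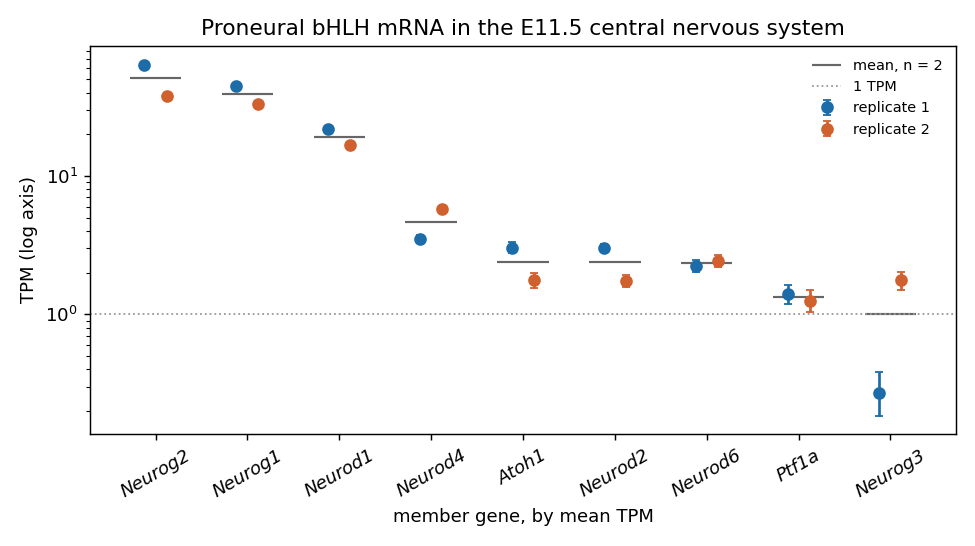
TPM of each of the 9 genes on a log axis, with replicate 1 and replicate 2 as points, exact 95% Poisson intervals as bars and the mean of both as a line. Neurog2, Neurog1 and Neurod1 lie between 16.82 and 63.81 TPM in both libraries, the other 6 between 0.27 and 5.80 TPM.

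The order by mean TPM was thus Neurog2, Neurog1, Neurod1, Neurod4, Atoh1, Neurod2, Neurod6, Ptf1a and Neurog3. Neighbours whose ranges over the libraries overlapped were Neurog2 and Neurog1, Atoh1 and Neurod2, Neurod2 and Neurod6, and Ptf1a and Neurog3. Taken over the libraries, these pairs did not differ beyond that spread. Within each library Neurog2 was still above Neurog1. Atoh1 and Neurod2 were nearly level, at 3.04 and 3.03 TPM in replicate 1 and 1.76 and 1.75 TPM in replicate 2. The remaining overlapping pairs changed order between the libraries. The ranges of the 4 other neighbouring pairs did not overlap, so the steps from Neurog1 to Neurod1, from Neurod1 to Neurod4, from Neurod4 to Atoh1 and from Neurod6 to Ptf1a held in both libraries. The first 4 places were the same in each library. At 1 TPM or more in both libraries there were 8 of the 9 genes, the exception being Neurog3 in replicate 1.

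Summed over the family, the neurogenins had 108.8 TPM in replicate 1 and 73.15 TPM in replicate 2, which is 75.7% and 71.0% of the TPM of all 9 genes. The 4 NeuroD factors had 30.52 and 26.81 TPM, or 21.2% and 26.0%. Atoh1 made 2.12% and 1.71%, and Ptf1a 0.974% and 1.22%. Neurogenin messages outnumbered NeuroD messages in both libraries, with Neurog2 and Neurog1 carrying nearly all of the first sum.

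To set the libraries against each other, counts were scaled by TMM and each gene received a log2 ratio of replicate 2 to replicate 1, after 0.5 was added to each count. Calls were limited to genes with 100 or more counts over both libraries and needed a ratio of at least 2-fold. None of the 9 genes was called lower in replicate 2, where 4.92% of all 16511 genes tested were, and 1 of 9, Neurog3, was called higher, where 6.53% were. With DESeq2 size factors, 2 of 9 were called lower, Atoh1 and Neurod2. With spike-in scaling 2 of 9 were called higher, Neurog3 and Neurod4, where 39.5% of all genes were higher and 0.921% lower. Neurog3 passed the count minimum only through replicate 2, and its call compares these 2 libraries, not conditions.

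Most of the 9 had ratios below the median of all genes, without passing 2-fold under TMM. How far below varied: the ratio of Atoh1 lay above that of 5.21% of genes tested, and that of Neurod6 above 44.2%. The median log2 ratio of the 9 was -0.55, beside 0.01 for all genes tested, whose quartiles were -0.34 and 0.36. Relative to the median of all genes, 7 of 9 were lower in replicate 2. The count was the same with TMM, DESeq2 size factors, total counts, TPM and spike-ins. That sameness is no check, because another scale factor shifts the ratios of all genes nearly alike. The absolute sign depends on the scaling: taken against the spike-in RNA, the median of all genes moved to 0.86 and that of the 9 genes to 0.31, with 3 of 9 below 0. For total counts the median of all genes was 0.12, and for TPM it was 0.15.

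Atoh1 had a log2 ratio of -0.97, a 1.97-fold lower scaled count in replicate 2 (95% binomial interval 1.68 to 2.30). The cortical factor Neurod2 was the same on this measure, 1.96-fold lower (1.73 to 2.23). Neurog2 was 1.91-fold lower (1.85 to 1.97). These 3 genes sat at the edge of the 2-fold threshold, and the intervals of Atoh1 and Neurod2 crossed it.

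Neurog1 had a log2 ratio of -0.61 (interval -0.67 to -0.55) and Neurod1 one of -0.55 (-0.62 to -0.49), so that both lay outside the quartiles of all genes and their intervals overlapped. Ptf1a, at -0.34 (-0.69 to 0.01), and Neurod6, at -0.07 (-0.28 to 0.14), had intervals that included 0, and Neurod6 turned to 0.04 with total counts and 0.12 with TPM. Neurod4 was 1.46-fold higher in replicate 2 (1.34 to 1.59). Neurog3 was 5.79-fold higher (3.94 to 8.79).

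**Figure D2:**
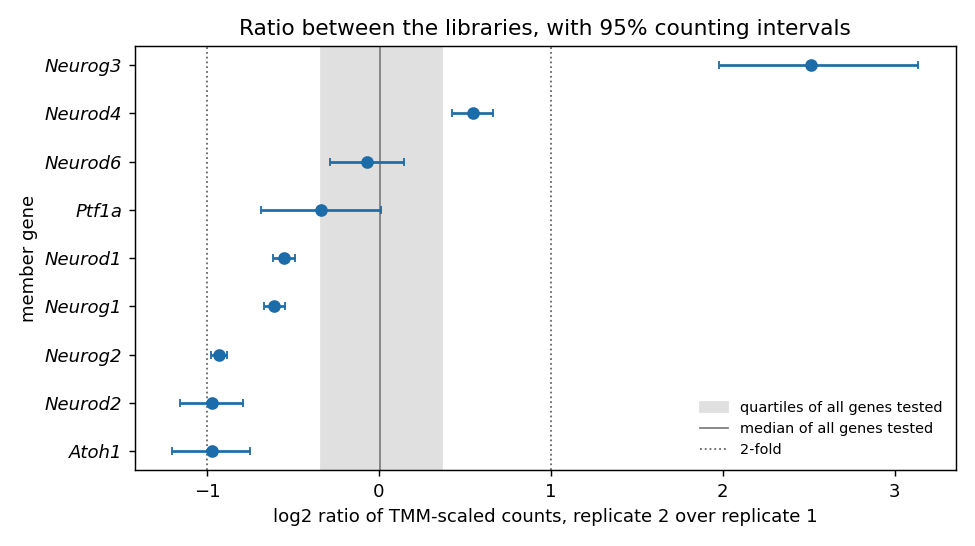
Log2 ratio of TMM-scaled counts, replicate 2 over replicate 1, for the 9 genes, with exact 95% binomial intervals; the grey band spans the quartiles of the 16511 genes tested and dotted lines mark 2-fold. Neurog3 stands alone on the right at 2.51, Neurod4 is at 0.55, and the other 7 lie between -0.97 and -0.07.

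The 3 E proteins, which dimerise with every proneural factor, summed to 339.8 and 432.5 TPM, more than the 143.7 and 103.0 TPM of the 9 proneural genes. Tcf3, the gene of E12 and E47, was at 203.35 and 187.05 TPM, and Tcf12 (HEB) was at 98.75 and 189.18 TPM and 1.57-fold higher in replicate 2. Tcf4 (E2-2) was the lowest, at 37.7 and 56.25 TPM, below Neurog2 and Neurog1 in replicate 1. None of the 3 was called either way, and their median log2 ratio was 0.56, on the other side of the all-gene median from most proneural genes.

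All 10 Id, Hes and Hey genes reached 1 TPM in both libraries, and their median log2 ratio was -0.23. The E protein antagonist Id3 was at 249.06 and 231.91 TPM, and the Notch effector Hes5 at 267.59 and 130.63 TPM, 1.92-fold lower in replicate 2. The lowest, Hes3, a repressor of the isthmus and early neural plate, was at 2.85 and 1.46 TPM and was the 1 gene of the list called lower, while Heyl, at 3.26 and 6.94 TPM, had the largest ratio upwards and was not called. The opponents were thus spread on both sides of 0.

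Of 20 genes known to act downstream of proneural factors or alongside them in newborn neurons, 5 were called lower in replicate 2 and 0 higher, with a median log2 ratio of -0.67. These were Gadd45g, Dll3, Eomes, Insm1 and Dll1. Gadd45g, a growth arrest gene, had the largest ratio, with 340.19 TPM in replicate 1 and 102.29 in replicate 2, 3.81-fold lower, and Hes6, an antagonist of Hes1, was at 213.59 and 131.93 TPM. The lowest, Dll4, a Delta ligand, was at 3.5 and 4.24 TPM, and Ebf2, a factor of migrating neurons, had the largest ratio upwards, at 20.87 and 23.93 TPM. The median of this list and that of the 9 proneural genes lay on the same side of all genes; Eomes stands in a cortical list as well.

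Of 18 other tissue-specific bHLH genes, 9 reached 1 TPM in both libraries and 10 could be tested, of which 4 were called lower in replicate 2 (among them Bhlhe22, Bhlhe23 and Olig1) and 2 higher (Scx and Tcf15). Scx, a bHLH factor of tendon progenitors, was at 4.79 and 34.57 TPM, 6.30-fold higher in replicate 2. Olig1, a bHLH factor of ventral progenitors, was at 2.91 and 1.09 TPM, 3.03-fold lower. Mesp1, of early mesoderm, was the lowest, at 0.02 and 0.00 TPM.

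Genes of the domains in which single members act were set beside them. Of 8 genes of the Atoh1 domain (most dorsal spinal interneurons and rhombic lip), 4 were called lower in replicate 2 and 0 higher, with a median log2 ratio of -0.89, beside -0.97 for Atoh1 itself. Lhx2, which is also a forebrain gene, was at 155.99 and 94.9 TPM, and Lhx9 at 40.84 and 29.03 TPM. Gdf7, a roof plate ligand, went from 2.45 TPM in replicate 1 to 1.1 in replicate 2, while Evx1, the lowest at 1.26 and 1.68 TPM, was the 1 gene of the list with a ratio above 0.

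The 13 genes of the Ptf1a domain went both ways, 2 called lower and 3 higher, with a median log2 ratio of -0.09. Rbpj, the partner of Ptf1a, was at 34.32 and 50.13 TPM. Gsx1, a dorsal progenitor factor, was at 14.41 and 6.91 TPM, 2.37-fold lower in replicate 2, and Lbx1, which marks dorsal interneurons of the spinal cord and hindbrain but also migrating limb muscle precursors, was at 0.05 and 2.94 TPM, 51.0-fold higher (27.5 to 107.0). Pax2 and Pax8, the other 2 called higher, are also expressed in kidney. The trunk genes above moved with Lbx1, and their part in its ratio was not tested.

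Of 17 listed genes of the sensory domain of Neurog1 and Neurog2, 16 matched a row, and 0 were called lower and 4 higher in replicate 2, with a median log2 ratio of 0.51, against -0.61 and -0.93 for Neurog1 and Neurog2. Isl1, a sensory and motor neuron factor, was at 26.76 and 36.23 TPM, and Eya2 at 18.44 and 19.84 TPM. Sox10, a neural crest and glial factor, was at 3.92 and 16.99 TPM, 3.82-fold higher in replicate 2, and Avil, the lowest, was at 0.74 and 0.5 TPM. Eya1 and Runx3 were among the others called higher. The median of this list lay on the other side of the all-gene median from the pair of factors, while 6 of its 16 genes, among them Avil, had ratios below 0.

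Of 10 genes of cortical and forebrain neurons, where Neurod2 and Neurod6 act, 3 were called lower in replicate 2 and 0 higher, with a median log2 ratio of -0.61. Emx2, a dorsal telencephalic factor, was at 29.88 and 25.04 TPM. Eomes, of intermediate progenitors, had the largest ratio, at 12.04 and 5.28 TPM, 2.48-fold lower. Neurod2, at -0.97, lay below this median and Neurod6, at -0.07, above it.

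For Neurog3, 2 lists were read. Of 6 genes of the V3 domain, the ventral spinal domain beside the floor plate, 4 were called lower in replicate 2 and 0 higher, with a median log2 ratio of -1.12, against 2.51 for Neurog3. Uncx was at 59.69 and 29.59 TPM and Shh, the floor plate signal, at 17.44 and 9.05 TPM. Nkx2-9 had the largest ratio downwards, 3.67 and 0.96 TPM, and Sim1, of V3 neurons, was the lowest and the 1 gene above 0, at 1.48 and 2 TPM. Neurog3 and Sim1 thus had ratios above 0, and the other 5 genes of the list had ratios below 0. The part of V3 cells in the ratio of Neurog3 was not tested.

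Of 14 pancreatic and gut endocrine genes, 6 reached 1 TPM in both libraries, 7 could be tested, 2 were called lower and 1 higher. Ins2 was at 0 counts in both libraries, Ins1 at 0 and 4 counts, and Pdx1, the defining factor of pancreatic progenitors, at 0.11 and 0.06 TPM. The highest, Sst at 47.12 and 28.68 TPM, is expressed in the brain as well, as is Nkx6-1, which had the largest ratio downwards at 21.39 and 7.32 TPM. Mnx1, which also marks motor neurons and the notochord, was the 1 gene called higher, at 0.38 and 1.15 TPM. Below the level of a call, Gcg had 97 and 180 counts, Cpa1 32 and 61, Cdx2 9 and 23, and Pdx1 39 and 18, so that the genes of this list lay on both sides of 0. Their part in the ratio of Neurog3 was not tested.

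In the retina and inner ear list, 4 of 10 genes reached 1 TPM in both libraries, and of 8 tested 2 were called lower and 3 higher, with a median log2 ratio of 0.63. Oc90, an otic vesicle gene, was at 6.52 and 10.53 TPM, Gata3 at 6.89 and 7.75 TPM, Pax2 at 1.61 and 5.96 TPM, Rax, of eye and hypothalamus, at 1.86 and 0.54 TPM, and Otog, the lowest, at 0.05 and 0.17 TPM. Among erythroid genes, 1 of 8, Klf1, was called lower and 0 higher. Hbb-y, an embryonic globin, was at 8740.21 and 13866.29 TPM, so that red blood cell RNA was present in both libraries.

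**Figure D3:**
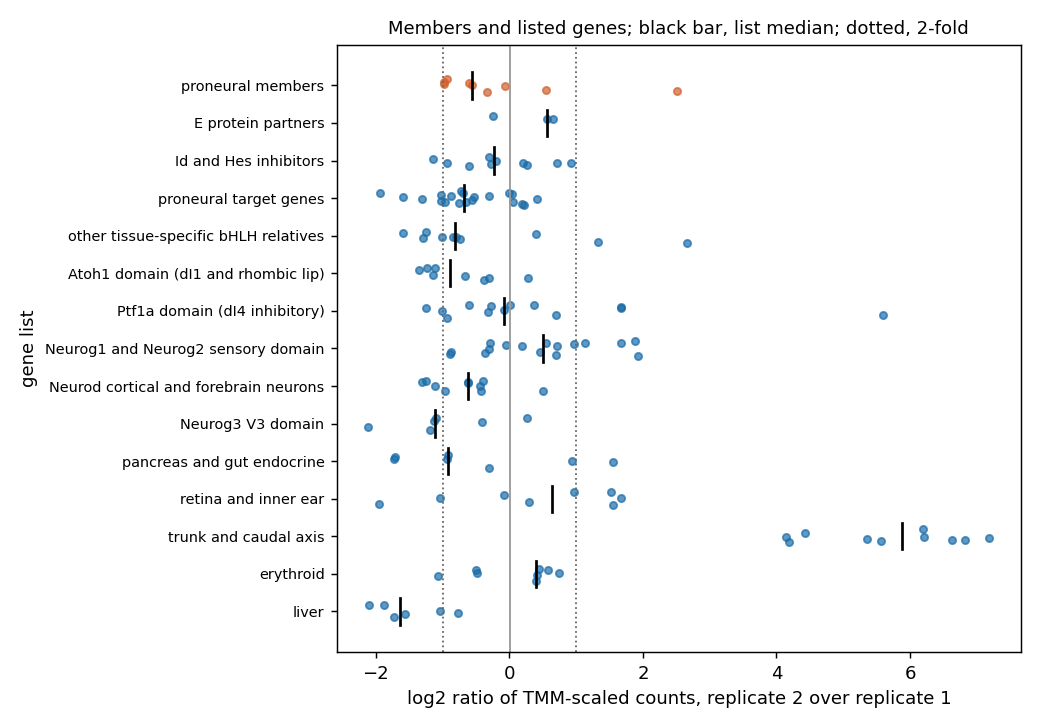
Log2 ratio of TMM-scaled counts, replicate 2 over replicate 1, for the 9 proneural genes and for the tested genes of 14 lists, 1 point a gene, with the list median as a black bar, the all-gene median as a grey line and 2-fold as dotted lines. The 10 trunk genes lie between 4.15 and 7.19, to the right of every other gene except Lbx1 of the Ptf1a domain, while the medians of the proneural genes, their target genes and the Atoh1 domain lie between -0.89 and -0.55.

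The structure of the genes bears on how they were counted. Each of the 9 had a single transcript in the deposited transcript tables, so that its gene and transcript values were the same. Neurog1 and Atoh1 are single exons. The other 7 have 2 exons and an intron of 134 bases (Neurog3) to 8744 bases (Neurod4), and of these only Ptf1a has coding sequence in both exons.

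Overlapping genes were found at 3 of the 9. Neurog3 lies wholly within the span of Fam241b on the opposite strand, which was at 11.82 and 9.67 TPM, above Neurog3 in both libraries but with the smaller change. Neurod1 lies wholly within the span of Cerkl on the same strand, a gene at 1.55 and 0.83 TPM, and Ptf1a is overlapped by its antisense transcript Ptf1aos at 0.02 and 0.02 TPM. Whether the counting used strand is not given in the sources used here. This overlap is one of gene spans, and shared exon sequence is not shown by it. Reads of Neurog3 and Fam241b in any shared sequence could be split wrongly, which was not tested. The deposited SD of read assignment for Neurog3 was 0 reads in both libraries. The pooled mm9 contigs, which carry a strand, covered the whole Neurog3 span on its own strand at a mean level of 0.436, and 223 bases of the opposite strand at 0.032, in the authors' unstated units.

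The same RNA was quantified by the authors on mm9 with Ensembl 65 gene models, as a first and a second RPKM (reads per length and library size) that no label ties to replicate 1 or 2. Neurog2 was at 8.761 and 5.201 RPKM, Neurog1 at 6.269 and 4.405 RPKM, and Neurod1 at 3.002 and 2.28 RPKM. These 3 genes kept the first 3 places in both values, and Neurod4, at 0.5286 and 0.8221 RPKM, the fourth. Neurog3 was at 0.03864 and 0.2266 RPKM, so that its second value was 5.87 times its first. Neurod2, Atoh1, Neurod6 and Ptf1a lay between 0.1547 and 0.4724 RPKM, each with the lower value second.

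Reads across the annotated intron gave another picture for some genes. In the deposited junction list, Neurog2 had 1322 reads in the first value and 297 in the second, and Neurod1 had 110 and 230. Neurod4 had 65 and 48, Neurod6 24 and 41, Ptf1a 24 and 8, Neurod2 5 and 0, and Neurog3 0 and 4. Neurog2 and Neurod1 therefore ran in opposite directions, although in RPKM both had the lower value second. No label ties the first junction value to the first RPKM. Setting junction reads and RPKM side by side for a gene assumes that their order is the same.

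The first and second junction values summed to 68994938 and 55259458 reads over 188096 annotated junctions, and were scaled by these sums. After scaling, the 111851 junctions with at least 100 reads had a median log2 ratio of 0.26, with quartiles -0.34 and 0.87. Their centre was thus above 0. Neurog2 junction reads were then 3.57-fold lower in the second value (95% binomial interval 3.14 to 4.06), whereas its RPKM ratio of second to first was 0.594. Neurod1 junction reads were 2.61-fold higher in the second (2.07 to 3.31), against an RPKM ratio of 0.76. Of the 3 member junctions with at least 100 reads, 1 was at least 2-fold lower and 1 at least 2-fold higher, where 8.35% and 20.7% of 111851 junctions were. The ratio of Neurod1 lay above that of 88.9% of the junctions. The ratio of Neurog2 lay lower than that of all but 1.2% of the junctions, and the cause of its distance from the gene value was not tested.

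**Figure D4:**
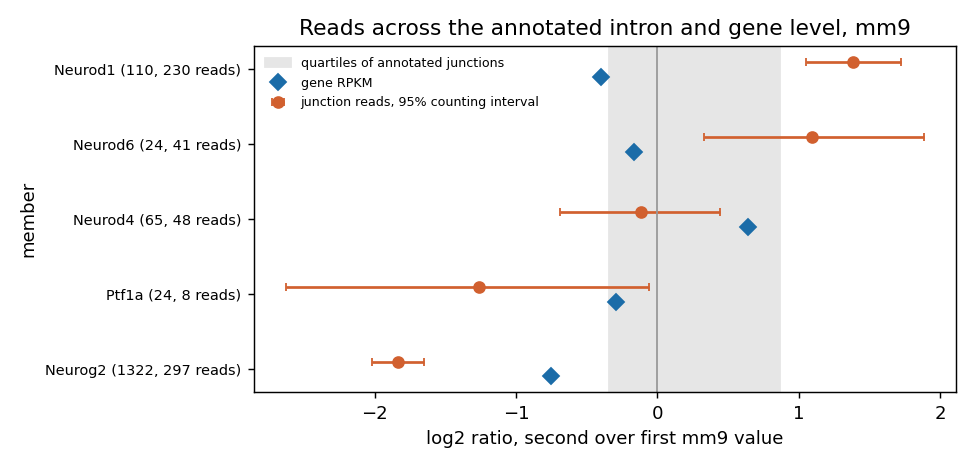
Log2 ratio of the second to the first mm9 value for the 5 members with reads in both, from reads across the annotated intron (circles, with exact 95% binomial intervals) and from gene RPKM (diamonds); the grey band spans the quartiles of annotated junctions with at least 100 reads. Circle and diamond lie on opposite sides of 0 for Neurod1, Neurod6 and Neurod4, though the interval of Neurod4 includes 0. For Neurog2 the circle, at 3.57-fold lower, lies far to the left of the diamond. No label shows that the first and second values have the same order for circles and diamonds.

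Neurod4 had another junction with the same acceptor and a donor inside the annotated intron, carrying 16 and 7 reads beside 65 and 48 over the annotated intron. No member other than Neurod4 had an unannotated junction of more than 6 reads. Sense contigs covered the whole mm9 span of 6 genes, introns included, and 96.0% of Ptf1a, 77.5% of Neurod6 and 55.0% of Neurod4, the gene with the longest intron. Contigs on the opposite strand were found at Neurog3 and at Neurod2, where they covered 632 bases.

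The promoters of Neurog2 and Neurog3 are printed because these neurogenins moved furthest apart between the libraries. They are the 250 bases before the RefSeq start on GRCm38.p6, 5′ to 3′ on the strand of the gene, chr3:127632886-127633135 (plus strand) for Neurog2 and chr10:62132840-62133089 (plus strand) for Neurog3. Capitals mark E-boxes of the form CANNTG.
Neurog2: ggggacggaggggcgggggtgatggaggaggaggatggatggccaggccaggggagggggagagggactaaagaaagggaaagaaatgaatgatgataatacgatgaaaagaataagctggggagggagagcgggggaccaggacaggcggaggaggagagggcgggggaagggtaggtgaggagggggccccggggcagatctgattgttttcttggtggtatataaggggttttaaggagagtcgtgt
Neurog3: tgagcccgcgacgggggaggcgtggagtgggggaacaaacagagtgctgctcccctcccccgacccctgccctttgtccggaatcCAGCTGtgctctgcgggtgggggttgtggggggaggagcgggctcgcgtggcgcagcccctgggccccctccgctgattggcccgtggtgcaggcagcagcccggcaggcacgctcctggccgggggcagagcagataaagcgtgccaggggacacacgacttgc
The window of Neurog3 held a single E-box, CAGCTG, and that of Neurog2 held none. Over the 9 genes, searching both strands and counting overlapping matches, 4 held an E-box (Neurog3, Neurod1, Neurod2 and Neurod6), where 66.2% of 32851 RefSeq promoter windows of the same length did. The form CAGATG was in 1 of the 9, Neurod2, and in 14.4% of all, and CAGCTG in 1 of the 9 and in 13.0% of all. CCAAT was in 6 of the 9 and in 33.8% of all windows, and TATAAA in 0 of the 9 and in 12.4%. A match describes these letters only, and other spellings, such as the tatataa in the printed Neurog2 window, were not counted.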

How the data were processed

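Per the notes deposited beside the tables, reads were quantified on mm10 with annotation M4; aligner and quantifier: not given in the sources used here. In each library's tables the authors deposited expected counts (estimated reads per gene), TPM and FPKM for each library, per the file headers. On mm9 the authors deposited 2 RPKM values per gene, junction read counts and a contig coverage signal pooled over replicates. Expected counts were rounded. Rows that name no Ensembl gene held 4.67% and 3.30% of counts and stayed out of library sizes. TMM used genes with at least 100 summed counts (edgeR 4.0.16, R 4.3.3), and ratios used a prior count of 0.5. The call was run on simulated counts with counting error only, scaled by total counts. Such a run checks its arithmetic, not its reliability between these libraries. Symbols and coordinates are from GENCODE M21. Intervals are exact 95% binomial or Poisson intervals and cover counting error only. Alternatives were DESeq2 1.42.0 size factors, total counts, TPM, spike-ins, other count minimums and TPM cuts, a prior of 5 and leaving out a library.

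The members and gene lists were chosen with earlier results of these data known. Of each list the text names the 2 genes with the highest mean TPM, the lowest, and the largest ratio each way among genes with at least 100 counts; some genes that this rule names are left out of the text, and genes named beyond this rule were chosen after their values were seen.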

Additional observations from a re-analysis of the deposited data

How the results depend on the processing

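At a minimum of 2 TPM in both libraries, 5 of the 9 genes passed in place of 8; leaving out 1 library at a time gave 8 to 9. DESeq2 size factors called 2 genes lower in replicate 2 in place of 0. A minimum of 500 counts left 0 called higher in place of 1, because Neurog3 has fewer counts. The median log2 ratio of the 9 genes, -0.55 under TMM, was -0.44 with total counts and -0.37 with the ratio of TPM. TMM over all Ensembl genes, the factor first computed, gave -0.57 with the same counts of calls; the change to genes with at least 100 counts was made after these values had been seen. No paired analysis was possible because both libraries belong to 1 group. A ratio between the libraries rests on 1 library on each side and has no replicate check. Depth limits Neurog3 and Ptf1a most, with 31 to 174 counts a library.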
